A study of Mus musculus with 18 samples.

Results

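Striatal gene expression was compared between mice given MPTP and mice given saline. The comparison used the 6 striatal arrays, 3 per treatment, of a series of 18 Affymetrix arrays that also covered frontal cortex and midbrain. Arrays were assigned by their titles, and probe sets were chosen without regard to response. Where a gene had several probe sets the brightest on average across all 18 arrays stood for it, which left 18194 genes. Of these, 11741 genes were tested, namely those whose mean reached the median of the whole table (5.18 on the log2 scale) in at least 1 region. That mean took both treatments together, so a gene could pass through the treatment in which it was high. The mice were C57BL/6J males aged 14 weeks. The MPTP group received intraperitoneal MPTP at 30 mg/kg of free base on each of 5 days, and its striata were taken 4 days after the final dose, while the control group received intraperitoneal saline. The labels describe the 3 arrays of a group as biological replicates and name no genetic change in either group. Values are log2 expression summaries of the total RNA of dissected tissue, and a difference of 1 is a doubling. In such bulk tissue, fewer cells of a type and less RNA per cell cannot be told apart.

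MPTP is a neurotoxin that is oxidised in glia by monoamine oxidase B to a cation, which dopaminergic terminals take up through the dopamine transporter and which inhibits complex I of the respiratory chain. The dopaminergic terminals lie in the striatum, whose neurons are mostly spiny projection neurons that carry dopamine receptors, while the transcripts of the dopaminergic neurons themselves are made in the midbrain. Reactive astrocytes and microglia are well known in the MPTP striatum. Oligodendrocytes, the myelin-forming cells, develop from precursors through a short stage of newly formed cells with its own set of transcripts before they make compact myelin.

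The tissue carried the markers of its label. The mean of 7 spiny neuron markers lay between 11.50 and 11.69 in the 6 striatal arrays, against 7.12 in saline cortex and 7.28 in saline midbrain. The 4 dopaminergic markers averaged 5.04 to 5.25 in striatum and 8.96 in saline midbrain, and 2 of them lay below the filter value in all striatal arrays. Array medians ran from 5.17 to 5.21 and interquartile ranges from 3.40 to 3.58, and correlations between arrays of 1 treatment were 0.995 to 0.996.

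A gene was called when limma gave a Benjamini-Hochberg adjusted p under 0.05 over all genes tested. In striatum 247 genes were called (2.1% of those tested), of which 152 were higher (1.29%) and 95 lower (0.809%) after MPTP. Most changes were modest: the median size was 0.50 among the higher and 0.46 among the lower genes, and only 6 higher genes and 1 lower gene changed by 1 or more. For 147 of the 152 and 92 of the 95 the MPTP and saline arrays did not overlap. Of all genes tested, 8.46% had all 3 MPTP arrays above all saline arrays and 14.7% had all 3 below. At an unadjusted p under 0.05 there were 1912 genes, against about 587.05 that chance would give. A second quantile normalization turned the split to 359 higher and 386 lower. With 1 array left out at a time the fits called 69 to 291 genes, and 40 genes (32 higher and 8 lower) stayed called in all 6 of these fits. The number of these 6 fits that kept a call is given beside the main genes. A call can be lost there while the difference stays as large, since fewer arrays give a wider error.

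The largest rise in striatum was that of 9630013A20Rik, a long noncoding RNA with the RefSeq synonym lncOL1, known from early differentiating oligodendrocytes. It belongs to no list and was singled out after its values were seen. It stood at 4.15, 4.42 and 4.14 in the saline arrays and at 7.39, 7.33 and 7.01 in the MPTP arrays. Every saline value was under the filter value of 5.18 and every MPTP value was far over it. The difference was 3.01 (SE 0.14, adjusted p = 8.23e-13), an 8.05-fold ratio of the measured means, and at least 2.06 on the log2 scale when the saline level is set at the filter value. Another probe set of this gene above the filter value differed by 3.09, and a dim one by 1.02. In frontal cortex its means were 3.75 in saline and 4.08 after MPTP, and in midbrain 3.97 and 3.87. All of these lay under the filter value, so the lack of a call in those regions says little. The gene entered the test through its striatal mean alone, and only because its MPTP arrays were high.

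The next 3 genes by p were the small GTPase Rras2, the Ras pathway scaffold Cnksr3 and the cell surface hyaluronidase Cemip2. Rras2 measured 4.82, 5.00 and 4.68 in saline and 6.80, 6.63 and 6.44 in MPTP striatum, a difference of 1.79 (SE 0.13, adjusted p = 1.1e-08), and a further probe set gave 1.78. Its saline arrays too lay under the filter value, against which the difference was at least 1.44. Cnksr3 measured 5.77, 6.14 and 6.21 in saline and 7.88, 7.69 and 7.73 after MPTP, a difference of 1.73 (SE 0.13, adjusted p = 1.6e-08). Cemip2 went from 5.88, 6.39 and 6.15 to 7.64, 7.52 and 7.31, a difference of 1.35 (SE 0.13, adjusted p = 1.9e-06), while its dim probe sets gave 0.52 and 0.19. In all of them the lowest MPTP array lay clear of the highest saline array. All of them, and 9630013A20Rik, stayed called in each of the 6 fits with an array left out.

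**Figure D1:**
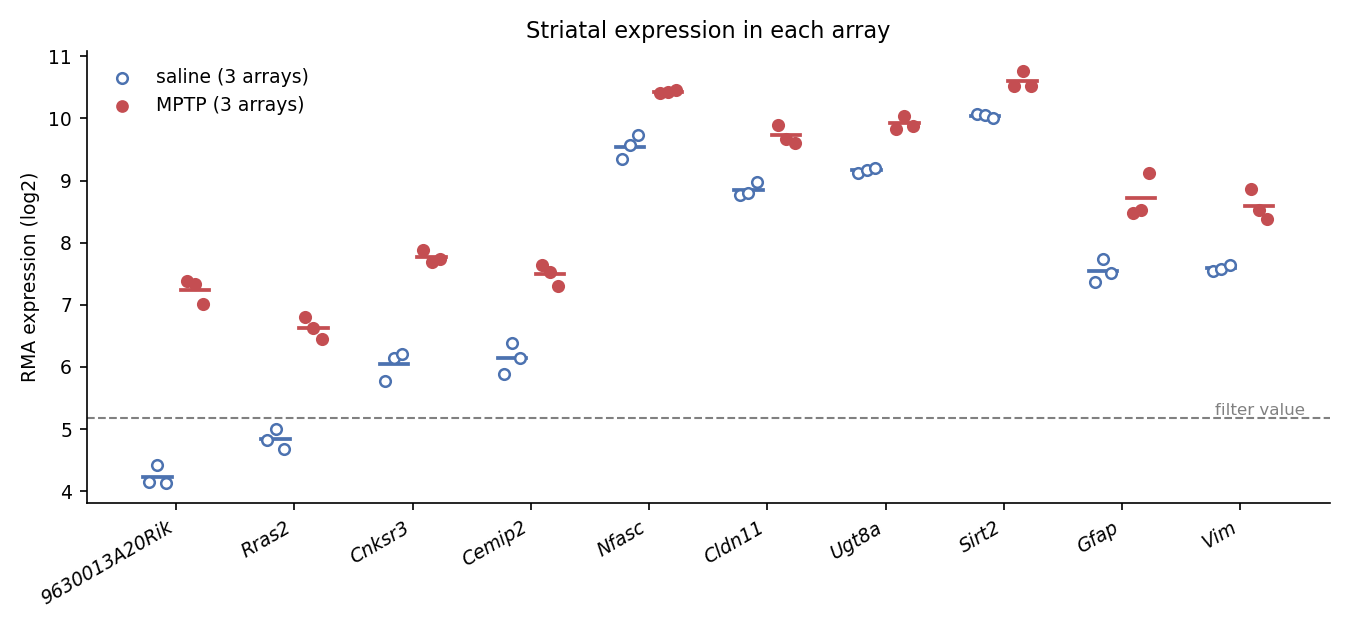
RMA expression (log2, vertical axis) of 10 genes in each striatal array, with saline arrays as open and MPTP arrays as filled points, group means as bars and the filter value of 5.18 as a dashed line. The MPTP arrays of each gene lie above its saline arrays, with the widest gap in 9630013A20Rik, at 4.14 to 4.42 in saline and 7.01 to 7.39 after MPTP.

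The 250 bases before the annotated start of the leading noncoding RNA and of Cnksr3 are shown as examples of leading rises, of which 1 carries the motif searched for and 1 does not. They are RefSeq sequences of GRCm38.p6, both read on the minus strand, at chr14:84476425-84476674 and chr10:7212238-7212487, and capitals mark the core motif ACAAAG of SOX factors, a family that includes regulators of oligodendrocyte differentiation.
9630013A20Rik: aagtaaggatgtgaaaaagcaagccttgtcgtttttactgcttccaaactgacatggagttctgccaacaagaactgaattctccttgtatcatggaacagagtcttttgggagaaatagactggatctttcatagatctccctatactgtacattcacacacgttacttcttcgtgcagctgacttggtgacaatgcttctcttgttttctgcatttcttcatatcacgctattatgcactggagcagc
Cnksr3: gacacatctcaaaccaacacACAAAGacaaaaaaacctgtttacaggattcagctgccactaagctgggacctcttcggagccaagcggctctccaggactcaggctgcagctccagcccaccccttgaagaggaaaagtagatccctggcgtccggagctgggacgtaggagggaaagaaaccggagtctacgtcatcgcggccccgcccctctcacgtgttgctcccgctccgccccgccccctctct
The motif, searched on both strands, was found once before Cnksr3 and not in these letters before 9630013A20Rik. Of the other leading genes searched, Rras2 and Ugt8a held no match and Tspan2 had 1 at 1 of its 2 annotated starts. It occurred in 20 of 121 matched higher genes (16.5%) and in 14.3% of the 9494 tested genes with a promoter in the table, so the share among higher genes was near that background. The motif was added to the search after the responses were known.

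Striatal responses were compared with those of the other regions by an interaction test in the same fit, and the genes called there were few. Against frontal cortex 7 genes differed (0.0596% of those tested) and against midbrain 8 (0.0681%), and all of these had a larger response in striatum. For 9630013A20Rik the striatal response exceeded the cortical one by 2.68 and the midbrain one by 3.10, but these sizes involve levels under the filter value in both other regions and in saline striatum and are not exact. The corresponding differences were 1.63 and 1.90 for Cnksr3, 1.47 and 1.78 for Rras2, and 1.15 and 1.24 for Cemip2. Also called in both tests were the adhesion molecule Nfasc (0.74 and 0.89) and Fam107b (0.86 and 0.86), while the protein kinase C substrate Marcksl1 (0.95) was called against cortex only, and the deacetylase Sirt2 (0.68) and the aggrecanase Adamts4 (1.05) against midbrain only. Fam107b, outside the naming rule, is named because the test called it. Without 1 striatal array at a time, the differences of Fam107b in both tests, and of Nfasc and Marcksl1 against cortex, were called in only 1 of 6 fits, although the differences stayed between 0.80 and 0.92 for Fam107b, 0.64 and 0.83 for Nfasc and 0.80 and 1.06 for Marcksl1. With the mean over a gene's probe sets the Nfasc differences were 0.37 (adjusted p = 0.52) and 0.58 (adjusted p = 0.12), and those of Fam107b and Marcksl1 against cortex were 0.83 and 0.63 (adjusted p = 0.056 and 0.13), so these calls were lost. That of Cemip2 against cortex was called in 5 of 6, and those of 9630013A20Rik, Cnksr3 and Rras2 in all 6. Adamts4 was the only striatal rise called in the opposite direction in midbrain (-0.45, adjusted p = 0.020).

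**Figure D2:**
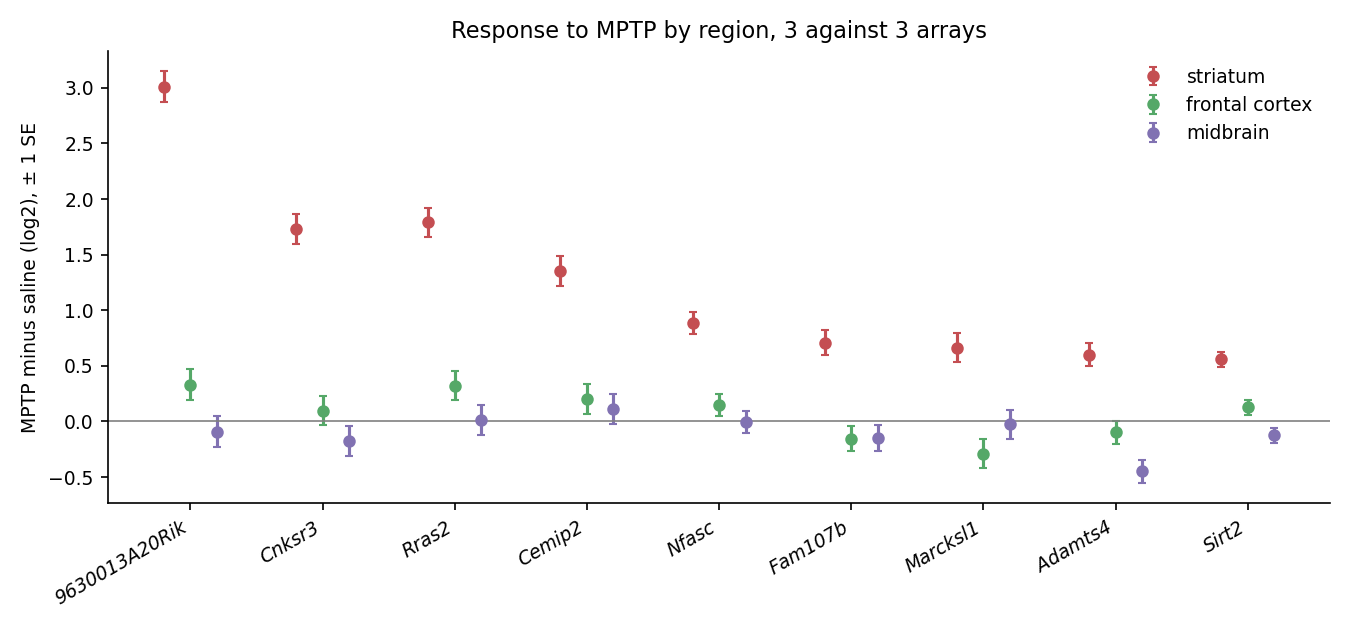
MPTP minus saline (log2, vertical axis, points with 1 SE on either side) in striatum, frontal cortex and midbrain for the 9 genes whose striatal response was called different from that of another region. All striatal points lie between 0.56 and 3.01, and the cortical and midbrain points between -0.45 and 0.33.

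Transcripts of newly formed oligodendrocytes made up the list with the largest share of calls. Of 31 tested members 16 were called higher and none lower, and 19 had all MPTP arrays above all saline arrays. The median difference was 0.40 in striatum, 0.13 in cortex and 0.05 in midbrain, against -0.03 over all genes in striatum. The mean over the list was 7.84, 7.98 and 7.94 in the saline arrays and 8.44, 8.43 and 8.41 in the MPTP arrays, so the groups were well apart and the MPTP arrays differed little among themselves. The count stayed between 14 and 15 with any 1 array left out. The list was written with striatal results for some members known, and without the 9 such members 7 of 22 were called and the median was 0.21.

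Within that list Nfasc, whose glial form anchors the myelin loops beside the node of Ranvier, measured 9.35, 9.57 and 9.73 in saline and 10.41, 10.43 and 10.45 after MPTP. Its difference was 0.88 (SE 0.10, adjusted p = 8.4e-06), but 2 further bright probe sets gave 0.45 and 0.08. The NAD-dependent deacetylase Sirt2, abundant in oligodendrocytes, went from 10.07, 10.05 and 10.01 to 10.52, 10.76 and 10.53, a rise of 0.56 (SE 0.07, adjusted p = 5.9e-05). Arrays of either treatment hardly varied for this gene. Ugt8a, which makes the galactolipids of myelin, went from 9.12, 9.16 and 9.20 to 9.84, 10.05 and 9.88, a rise of 0.76 (SE 0.10, adjusted p = 6.3e-05), and the tight junction gene Cldn11 from 8.76, 8.79 and 8.97 to 9.90, 9.67 and 9.61, a rise of 0.88 (SE 0.12, adjusted p = 1.0e-04). The tetraspanin Tspan2 rose by 0.56, Kndc1 by 0.69 and Strip2 by 0.87. All of these stayed called in the 6 fits with an array left out. Rras2, Cnksr3 and Cemip2, described above, are also called members of this list, so they and the list's count are not separate results. The remaining called members, named after their values were seen apart from Elovl7, were Fam107b (0.71), Tmem163 (0.68), Tns3 (0.40), the fatty acid elongase Elovl7 (0.47), Mid1 (0.83) and the guidance factor Sema5a (0.72). Sema5a was the only one whose saline and MPTP arrays overlapped, and Mid1, at 0.65 in cortex and 0.70 in midbrain, differed about as much in the other regions.

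In the list of compact myelin transcripts fewer members were called. Of 34 tested members of the mature myelin list 8 were called higher and none lower, with a median of 0.09, and 2 of the 8 (Ugt8a and Cldn11) also belong to the list of newly formed cells. Without the members named in earlier striatal results 5 of 31 were called and the median was 0.05. The difference between the lists was not tested. Mag, an adhesion molecule of the inner myelin membrane, measured 10.19, 10.16 and 9.98 in saline and 10.38, 10.66 and 10.51 in MPTP arrays, a rise of 0.41. The treatments did not overlap. Cnp rose by 0.32 (SE 0.08) and Mbp, the myelin basic protein, from 13.24, 13.30 and 13.27 to 13.54, 13.40 and 13.59, a rise of 0.24 that is given after its values were seen, and its other probe sets gave -0.01 to 0.27. Apod, Lpar1 (also named after its values were seen) and Adamts4 rose by 0.50, 0.40 and 0.60. With 1 array left out the count fell to between 3 and 6. Mbp, Cnp, Apod and Lpar1 were each called in 1 of the 6 fits and Adamts4 in all.

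Of 17 precursor and lineage genes 2 were called, both higher. The lineage transcription factor Olig1 went from 10.54, 10.79 and 10.66 to 11.02, 11.21 and 11.05 (0.43, SE 0.08, adjusted p = 0.0053), and Ptprz1, a receptor phosphatase of precursors and astrocytes, differed by 0.40 (adjusted p = 0.034). Olig1 kept its call in all 6 fits and Ptprz1 in 1. The precursor receptor Pdgfra had a difference of 0.30 (adjusted p = 0.11) and Olig2 of 0.49 (adjusted p = 0.070), and neither was called. Among 25 enzymes of galactolipid and sphingolipid synthesis 4 were called higher, Ugt8a, Elovl7, the ceramide synthase Cers2 (0.34) and the desaturase Degs1 (0.34), and with 1 array left out the count was 1 or 2. Of 25 genes of the node of Ranvier and of axon-glial contact 2 were higher, Nfasc and Mag, and the axonal paranode gene Cntnap1 was lower (-0.64, adjusted p = 0.024, called in 2 of 6 fits). In the RAS and MAP kinase list of 36 genes, 3 were called, Rras2, Cnksr3 and the exchange factor Sos2 (0.53, adjusted p = 0.028), all higher, while the list's median was -0.04.

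**Figure D3:**
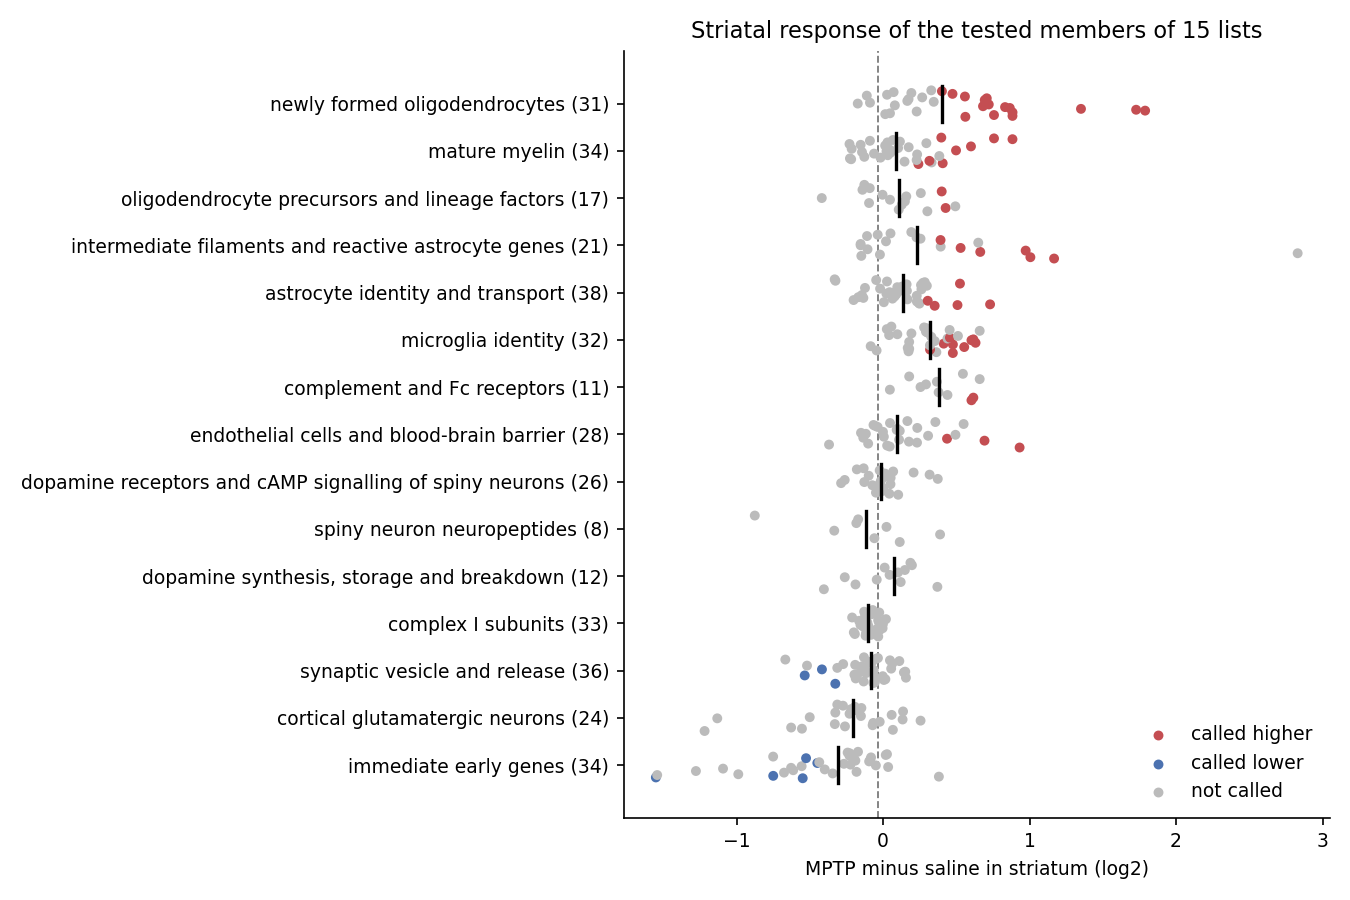
MPTP minus saline in striatum (log2, horizontal axis) for each tested member of 15 lists, with the number of members in parentheses, called members in colour, list medians as black bars and the median of all genes (-0.03) as a dashed line. The list of newly formed oligodendrocytes holds 16 called members with a median of 0.40, and the immediate early gene list has the lowest median of those shown, -0.31.

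Of 21 genes of intermediate filaments and reactive astrocytes 6 were called higher and none lower. Gfap, the astrocytic filament protein, measured 7.37, 7.74 and 7.52 in saline and 8.48, 8.53 and 9.13 after MPTP, a rise of 1.17 (SE 0.15, adjusted p = 6.3e-05) that its other probe sets gave as 1.03 and 1.10. Vim went from 7.54, 7.57 and 7.64 to 8.86, 8.53 and 8.39, a rise of 1.01 (SE 0.13, adjusted p = 6.3e-05). Neither gene had any overlap between treatments, and both kept their calls in all 6 fits. The other called members were the oncostatin M receptor Osmr (0.97, adjusted p = 0.026), the protease inhibitor Serpina3n (0.66, adjusted p = 0.022), the ferroxidase Cp (0.53) and the class I molecule H2-D1 (0.39). Each of these was called in 1 or 2 of the 6 fits, and the list count was 7 without MPTP replicate 2 and 2 or 3 without any other array.

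Of 38 astrocyte identity and transport genes 5 were called higher and none lower, with a list median of 0.14. Differences were positive for 29 and negative for 9, and 2 members had all MPTP arrays below all saline arrays. The astrocyte marker Aldh1l1, named after its values were seen, measured 8.52, 8.63 and 8.47 in saline and 8.41, 8.19 and 8.43 after MPTP. Its difference of -0.20 was not called by limma (adjusted p = 0.21). Clu, a secreted chaperone, showed the tightest arrays, at 12.30, 12.30 and 12.31 in saline and 12.85, 12.74 and 12.89 after MPTP, a rise of 0.53 (SE 0.07, adjusted p = 1.7e-04). The connexins Gjb6 and Gja1 rose by 0.73 and 0.51, the water channel Aqp4 by 0.35 and glutamine synthetase Glul by 0.31. Clu stayed called in all 6 fits, Gjb6 in 5, Gja1 in 3, Aqp4 in 2 and Glul in 1. The number called higher in the list was 9 without MPTP replicate 2, 1 without MPTP replicate 1 and 2 without MPTP replicate 3 or saline replicate 1. Without saline replicate 1 there was also 1 called fall. The same number of falls was called after a second quantile normalization, with array weights and with the interquartile range as a covariate. The interleukin-6 family list had 2 called of 23, the receptors Osmr and Lifr (0.44, adjusted p = 0.027), and its count was 0 without MPTP replicate 1 or 3 or saline replicate 1 or 2.

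Of 32 tested microglial identity genes 9 were called higher and none lower, 30 had positive differences and 22 had all MPTP arrays above all saline arrays, against 8.46% of all genes. The list mean was 7.39, 7.42 and 7.30 in saline and 7.80, 7.55 and 7.71 after MPTP, so MPTP replicate 2 lay nearest to the controls. The fractalkine receptor Cx3cr1 measured 8.83, 8.85 and 8.76 in saline and 9.41, 9.12 and 9.35 after MPTP, a rise of 0.48 (SE 0.10, adjusted p = 0.012). The complement gene C1qa went from 8.93, 9.10 and 8.91 to 9.69, 9.31 and 9.75 (0.60, SE 0.12, adjusted p = 0.012). In both, MPTP replicate 2 was the lowest MPTP array and still above every control. Ly86, Gpr34, Fcrls and the growth factor receptor Csf1r rose by 0.63, 0.55, 0.48 and 0.32. The other called members, C1qb (0.62), the lysosomal protease Ctss (0.46) and Olfml3 (0.41), complete the 9, of which Olfml3 is named after its values were seen. The count was 12 without MPTP replicate 2, 2 without MPTP replicate 3, 2 each without saline replicate 1 or 2, and 0 without MPTP replicate 1 or saline replicate 3, while the median stayed between 0.28 and 0.39.

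Of 11 complement and Fc receptor genes 2 were called, C1qa and C1qb, and all 11 had positive differences, with a median of 0.38. C1qb measured 9.03, 9.10 and 9.03 in saline and 9.91, 9.30 and 9.80 after MPTP. MPTP replicates 1 and 3 were again the higher ones. C1qc (0.44, adjusted p = 0.073) and Fcgr3 (0.66, adjusted p = 0.074) were not called. The count was 0 without MPTP replicate 1, MPTP replicate 3 or saline replicate 3, and 5 without MPTP replicate 2. Among 17 genes of microglial activation and phagocytosis, the lysozyme Lyz2 (0.84, adjusted p = 0.024) and B2m (0.38, adjusted p = 0.013) were higher. That count was 0 without MPTP replicate 1 or saline replicate 1, and Lyz2 was called in 2 of the 6 fits. Among 22 lysosomal genes the cathepsins Ctsl (0.38, adjusted p = 0.0053) and Ctss were higher. Ctsl kept its call in all 6 fits, and the lysosomal count was 5 without MPTP replicate 2 and 1 without any other array.

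Of 20 interferon response and class I genes 4 were higher and none lower. Ifitm1, a membrane protein induced by interferons, measured 6.06, 5.94 and 5.54 in saline and 6.58, 6.49 and 6.75 after MPTP, a rise of 0.76 (SE 0.17, adjusted p = 0.022). Ifitm3 went from 7.25, 7.27 and 7.11 to 8.23, 7.45 and 8.11, a rise of 0.72 (adjusted p = 0.048). The treatments did not overlap for either gene, and Ifitm3 again was lowest in MPTP replicate 2. B2m and H2-D1 were the other called members, and the count was 0 without MPTP replicate 1. Lcn2, an acute-phase iron carrier, had the widest range in MPTP arrays of the listed genes tested, with 3.77, 3.38 and 3.76 in saline and 7.59, 4.11 and 7.71 in MPTP arrays. Its difference of 2.83 (SE 0.89) was not called (adjusted p = 0.099), and MPTP replicate 2 was under the filter value.

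In the vascular list 3 of 28 genes were higher, the transporter Slco1a4 (0.44), the transcription factor Sox17 (0.69) and Vwf (0.93), and Vwf differed by 0.94 in cortex and 0.81 in midbrain as well. This count was 5 without MPTP replicate 2 and 1 without any other array. A second probe set of Sox17 above the filter value gave -0.003. By limma none of 22 pericyte, smooth muscle and meningeal genes was called. An unadjusted p under 0.05 was found for 2 of them, and for 1912 of all 11741 genes. Of 34 matrix and hyaluronan genes Cemip2, Sparc and Adamts4 were higher, and the pericellular protease Mmp14 (-0.53) and the matricellular protein Ccn3 (-0.93) were lower. Sparc, a collagen-binding glycoprotein, measured 9.11, 9.32 and 9.27 in saline and 9.97, 9.58 and 10.20 after MPTP, a rise of 0.68 (SE 0.11, adjusted p = 0.0020) kept in all 6 fits.

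Genes of oxidant defence, metal and sterol handling changed in small numbers. Of 32 antioxidant and NRF2 target genes 4 were higher, Nfe2l2, which encodes NRF2 (0.44), microsomal glutathione transferase Mgst1 (0.72), catalase Cat (0.45) and Gsto1 (0.35), while 18 of the 32 and 6942 of all 11741 genes had negative differences. Nfe2l2 measured 6.58, 6.44 and 6.52 in saline and 7.05, 6.90 and 6.91 after MPTP. Its arrays did not overlap, yet it was called in only 1 of the 6 fits, and the list count was 0 without saline replicate 3. Of 16 metal handling genes the metallothionein Mt2 (0.56) and Cp were higher, a count that was 5 without MPTP replicate 2 and at most 1 otherwise. Of 26 sterol genes the cholesterol exporter Abca1 rose from 8.84, 8.98 and 8.99 to 9.92, 9.39 and 9.63 (0.71, SE 0.10, adjusted p = 5.7e-04), and Srebf2, the master regulator of sterol synthesis, fell by 0.30 (adjusted p = 0.041). Abca1 was called in all 6 fits and Srebf2 in none. Of the 26, 22 had negative differences, with a median of -0.12.

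Of 29 glucocorticoid-induced genes 3 were higher, Gjb6, Mt2 and Glul, and Hsd11b1, the enzyme that regenerates active glucocorticoid, was lower, at 7.51, 7.43 and 7.47 in saline and 6.40, 6.95 and 6.87 after MPTP (-0.74, SE 0.14, adjusted p = 0.0063). Its 3 saline arrays were close together and every MPTP array lay lower. Of 21 clock genes Dbp was higher (0.42, adjusted p = 0.022) and its activator Arntl lower, from 8.14, 8.02 and 8.02 to 7.77, 7.54 and 7.35 (-0.51, SE 0.11, adjusted p = 0.016). Of 30 genes of axonal injury and outgrowth the related protein kinase C substrates Marcks (0.46) and Marcksl1 (0.66) were higher, and the tubulin-binding protein Stmn4 (-0.28) lower. Of 37 neurotrophic genes the insulin-like growth factor binding proteins moved in opposite directions, Igfbp5 by 0.33 and Igfbp2 by -0.64 (adjusted p = 0.019). Of 21 imprinted genes Ndn was lower (-0.67, adjusted p = 0.039, called in 1 of 6 fits).

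Genes induced by neuronal activity gave the most called falls of the 45 lists. Of 34 tested immediate early genes 5 were called lower and none higher, 12 had all MPTP arrays below all saline arrays (14.7% of all genes did), and the median was -0.31. The zinc finger factor Egr2 measured 6.39, 7.43 and 7.49 in saline and 4.89, 5.71 and 6.04 after MPTP, a fall of 1.55 on the log2 scale (SE 0.37, adjusted p = 0.025) and the only one of at least 1 among all called falls. Egr4 went from 7.77, 8.01 and 8.22 to 6.76, 7.44 and 7.56, a difference of -0.75 (SE 0.19, adjusted p = 0.038). Egr1 went from 11.78, 11.79 and 12.09 to 11.21, 11.20 and 11.60, a difference of -0.55 (SE 0.14, adjusted p = 0.045). In these genes the treatments did not overlap, and MPTP replicate 1 was the lowest or near it. Gadd45g (-0.53) and the phosphatase Dusp14 (-0.45) were the other called members. Fos stood at 7.98, 8.75 and 8.26 in saline and at 5.26, 7.50 and 7.62 after MPTP, and its difference of -1.54 (SE 0.47, adjusted p = 0.090) was not called. Arc had -1.28 (adjusted p = 0.23). Egr3, of the same family, lay the other way, at 9.39, 9.45 and 9.53 in saline and 9.75, 9.85 and 9.91 after MPTP (0.38, adjusted p = 0.078), though a second probe set above the filter value gave -0.23.

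The immediate early calls depended on single arrays. Without MPTP replicate 1 or without saline replicate 3 no member was called, without saline replicate 2 there was 1, without saline replicate 1 there were 3, and without MPTP replicate 2 or 3 there were 6. The list median was -0.18 without MPTP replicate 1. Markers of cortical neurons moved with these genes: over 24 tested cortical glutamatergic genes the mean was 7.75, 7.91 and 8.07 in the saline and 7.36, 7.73 and 7.87 in the MPTP arrays, and MPTP replicate 1 was lowest in both lists. By limma none of the 24 was called (8 at an unadjusted p under 0.05, and 3 called lower without MPTP replicate 3, 2 without saline replicate 1), 19 had negative differences and the median was -0.20. Over all 11741 genes, 6942 had negative differences and 1912 an unadjusted p under 0.05. Of the 5 defining cortical markers, whose mean was 5.71 to 6.31 in saline striatum, 4.58 to 5.91 in MPTP striatum and 8.10 in saline cortex, the vesicular glutamate transporter Slc17a7 measured 7.50, 8.04 and 8.61 in saline and 5.04, 7.45 and 8.002 after MPTP. Its difference of -1.22 was not called (adjusted p = 0.21), and most of the gap came from MPTP replicate 1. The choroid plexus gene Ttr varied likewise, with 10.14, 10.61 and 10.20 in saline and 7.01, 8.37 and 10.18 after MPTP (adjusted p = 0.090), while the other choroid plexus genes tested, Clic6 and Otx2, differed by 0.20 and -0.05. Levels in the saline arrays of the other regions, which the striatal comparison does not use, are given as a description. The saline cortex mean was above the saline midbrain mean for 71 of the 95 falls (74.7%), 41 of the 152 rises (27.0%) and 47.6% of all genes tested. By limma 12 of the 34 immediate early genes were higher in saline cortex than in saline striatum, against 23.5% of all genes tested. This count uses the same saline striatal arrays as the MPTP comparison. Egr1, Egr2 and Egr4 had saline cortex means of 11.8, 6.29 and 7.65, below their saline striatum means of 11.9, 7.10 and 8.001. The cortex levels of Gadd45g and Dusp14, the other called members, are not given here, so these 3 genes do not stand for the list. The part of cortical tissue in the falls was not tested.

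**Figure D4:**
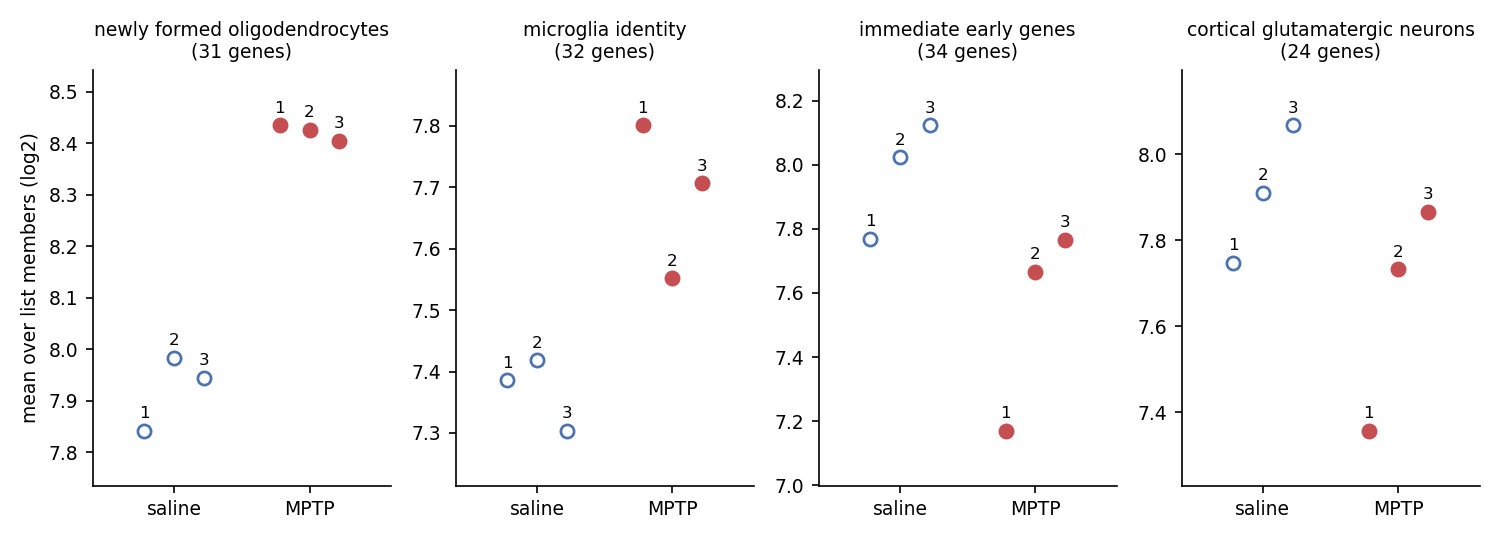
Mean log2 expression over the tested members of 4 lists (vertical axes, each with its own scale) in the saline (open) and MPTP (filled) striatal arrays, numbered by replicate. The newly formed oligodendrocyte means are 7.84 to 7.98 in saline and 8.41 to 8.44 after MPTP, MPTP replicate 2 is the lowest MPTP array for microglia, and MPTP replicate 1 is the lowest array for the immediate early and cortical lists.

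Srf, which encodes serum response factor, an activator of Egr genes, was lower and is named after its values were seen. It measured 8.38, 8.35 and 8.44 in saline and 8.04, 8.01 and 8.06 after MPTP, a difference of -0.35 (SE 0.09, adjusted p = 0.040) that a second probe set gave as -0.34. Its 6 values fell into separate and narrow ranges, yet with fewer arrays it was called in none of the 6 fits. Serum response factor binds the CArG box, and the cAMP response element binds factors of the CREB family, so the 250 bases before the starts of Srf, Egr2 and Egr4 are shown from RefSeq (GRCm38.p6). They lie at chr17:46556163-46556412 on the minus strand, at chr10:67537619-67537868 on the plus strand (1 of several annotated Egr2 starts) and at chr6:85513590-85513839 on the minus strand. Capitals mark CArG boxes in the first pair, and in Egr4 the short cAMP response element TGACG, here on the opposite strand.
Srf: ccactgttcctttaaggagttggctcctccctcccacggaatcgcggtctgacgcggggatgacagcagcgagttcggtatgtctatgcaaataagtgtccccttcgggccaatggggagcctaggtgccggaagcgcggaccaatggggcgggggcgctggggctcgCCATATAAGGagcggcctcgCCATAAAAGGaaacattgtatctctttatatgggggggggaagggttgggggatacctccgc
Egr2: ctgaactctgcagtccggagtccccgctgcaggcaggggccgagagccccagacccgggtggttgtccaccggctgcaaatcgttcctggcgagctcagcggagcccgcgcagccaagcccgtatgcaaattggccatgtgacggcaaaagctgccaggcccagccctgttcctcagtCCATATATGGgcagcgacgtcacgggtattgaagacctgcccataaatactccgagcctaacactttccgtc
Egr4: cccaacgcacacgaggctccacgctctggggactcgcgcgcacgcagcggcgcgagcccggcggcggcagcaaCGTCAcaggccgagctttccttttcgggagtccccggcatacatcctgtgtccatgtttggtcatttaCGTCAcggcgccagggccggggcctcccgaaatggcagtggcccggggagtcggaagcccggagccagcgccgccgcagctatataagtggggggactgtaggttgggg
Srf held 2 CArG boxes close to each other, and this Egr2 start had 1. Another annotated Egr2 start had no CArG box, and neither did the Egr4 letters. The short element TGACG also occurs in the Srf and Egr2 letters, where it is not marked. On either strand a CArG box was present for 4 of 77 lower genes with a promoter in the table (5.19%, Cited1, Egr2, Rap1gap2 and Srf) and for 2 of 121 higher genes (1.65%, Gsto1 and Tmem163), against 1.49% of tested genes and 1.47% of all promoters in the table. TGACG was present in 41.6% of lower and 22.3% of higher genes, against 31.0% of tested genes, and the full element TGACGTCA, which contains it, in 4 lower genes (Chgb, Pard6a, Pnpla3 and Syn1) and no higher gene, against 3.09%. Other motifs were searched too. Shares of lower, higher and tested genes were 3.9%, 7.44% and 6.89% for the STAT palindrome and 16.9%, 17.4% and 24.0% for the ETS core. For the E-box they were 14.3%, 9.92% and 10.2%, and for the GC box 67.5%, 53.7% and 64.6%. The TATA box had 6.49%, 7.44% and 7.9%, and the AP-1 site 2.6%, 4.13% and 3.82%. No STAT palindrome was found before Gfap or Vim. These are letter matches in a short window, and no share was tested. Of the 247 called genes, 198 were matched in the table, and the genes listed for a motif were named after the search.

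Genes of transmitter release and of glutamate receptors were lower in small numbers, where 0.809% of all genes were called lower. Of 36 synaptic vesicle and release genes 3 were lower and none higher, the fusion protein syntaxin Stx1a (-0.53), the vesicle protein Rph3a (-0.42) and synapsin Syn1 (-0.33). Stx1a measured 9.25, 9.43 and 9.60 in saline and 8.52, 9.04 and 9.11 after MPTP, against a saline cortex mean of 11.5. It was called in 3 of the 6 fits, and the list count was 0 without MPTP replicate 1 or saline replicate 2. By limma 28 of these 36 genes were higher in saline cortex than in saline striatum. The same held for 11 of the 33 genes of the glutamate list and for 23.5% of all genes tested. The part of cortical tissue in these falls was not tested. Of 33 glutamate receptor and scaffold genes the scaffold Magi1 (-0.66, SE 0.10, adjusted p = 0.0011) and the metabotropic receptor Grm8 were lower. Grm8 went from 5.94, 5.93 and 5.95 to 5.11, 4.97 and 5.47 (-0.76, SE 0.14, adjusted p = 0.0082). Both kept their calls in all 6 fits, and the other probe set of Magi1 above the filter value gave -0.15. Of 15 subcortical excitatory genes the vesicular glutamate transporter Slc17a6 was lower, from 5.34, 4.73 and 5.01 to 3.90, 4.43 and 4.51 (-0.74, adjusted p = 0.019), with all MPTP arrays and most saline arrays under the filter value. Of 33 calcium and calmodulin genes only Cpne9 was called, lower by 0.82 on the log2 scale.

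The falls with the smallest p beside these carried other functions. The AlkB family dioxygenase homolog Alkbh7 fell from 8.68, 8.46 and 8.40 to 8.06, 8.02 and 7.64 (-0.60, SE 0.11, adjusted p = 0.0037), and Ltbp4, which holds latent TGF-beta in the matrix, from 7.16, 7.18 and 7.13 to 6.54, 6.72 and 6.59 (-0.54, SE 0.10, adjusted p = 0.0058). The calcium channel subunit Cacnb1 fell from 9.37, 9.27 and 9.34 to 8.91, 8.88 and 8.91 (-0.43, SE 0.08, adjusted p = 0.0090). In each case the arrays of a treatment kept together and all 6 fits kept the call. The transcription elongation factor Tcea2 (-0.64), the cation channel Trpv2 (-0.61) and Ranbp3l (-0.65) fell as steadily, though a second probe set of Tcea2 above the filter value gave 0.04. The transcription factor Sox5 (-0.58), the Wnt pathway inhibitor Ctnnbip1 (-0.45), the vesicle protein Syngr1 (-0.31), Septin8 (-0.32), the adhesion molecule Sdk2 (-0.55) and Gprin1 (-0.52) were called in 3 to 5 fits. Further probe sets above the filter value gave -0.05 for Ctnnbip1, -0.11 and -0.04 for Septin8 and -0.16 for Sdk2. They gave -0.23 for Gprin1, -0.28 for Syngr1 and -0.30 for Sox5. Among the rises of smallest p outside the lists was the splicing factor Luc7l2 (0.54), which differed by 0.52 in midbrain too. Its remaining probe sets brighter than 5.18 differed by 0.004 to 0.59 in striatum.

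The spiny projection neurons, which receive the dopaminergic input, gave no gene called by limma among 26 receptor and cAMP signalling genes, 8 neuropeptide genes and 18 transcription factor and channel genes, where 2.1% of all genes were called. At an unadjusted p under 0.05 there were 5, 3 and 1, and 1912 of all 11741 genes. In the receptor and cAMP list, 2 were called higher and 2 lower with the arrays of the compared regions alone, 2 and 1 with the interquartile range as a covariate, and 1 and 1 with array weights or a second quantile normalization. Drd1 measured 10.67, 10.77 and 10.78 in saline and 10.94, 10.85 and 10.75 after MPTP, a difference of 0.10 with a 95% interval of -0.33 to 0.54. Drd2 measured 10.36, 10.20 and 10.15 in saline and 10.44, 10.15 and 10.24 after MPTP, a difference of 0.04 with an interval of -0.24 to 0.33. Both receptors overlapped between treatments. The enkephalin precursor Penk of the indirect pathway differed by 0.11 (interval -0.09 to 0.31), the dynorphin precursor Pdyn by -0.06 (interval -0.37 to 0.25) and the phosphatase inhibitor Ppp1r1b by -0.05 (interval -0.30 to 0.20). Changes within these intervals could not be resolved with 3 arrays a group. The substance P precursor Tac1 of the direct pathway lay higher in every MPTP array, at 11.43, 11.38 and 11.33 in saline against 11.83, 11.65 and 11.83, but its difference of 0.39 (interval 0.12 to 0.66) was not called (adjusted p = 0.12). Cck, mostly cortical, differed by -0.88 and also missed the threshold (adjusted p = 0.058), with 7.42 in MPTP replicate 1 against 8.88 and 8.93 in the others. The neuropeptide list had 1 called fall without MPTP replicate 2, MPTP replicate 3 or saline replicate 1. It also had 1 called fall with a filter at the 75th percentile, array weights or a replicate block. With the striatal arrays alone it had 1 called rise and no called fall.

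**Figure D5:**
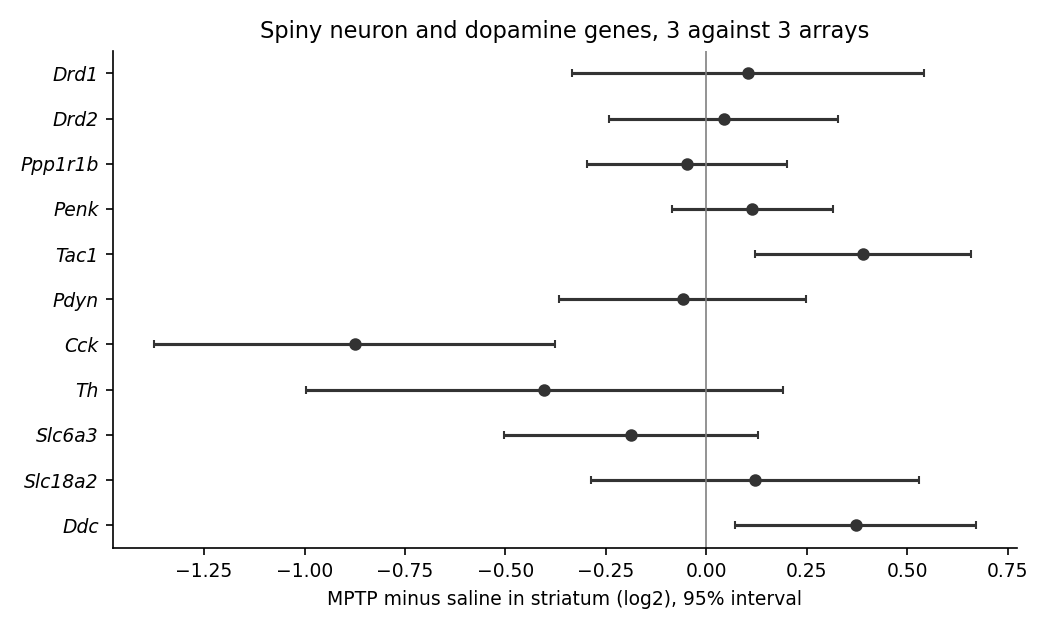
MPTP minus saline in striatum (log2, horizontal axis) with 95% intervals from the fit, not adjusted for the number of genes, for 11 spiny neuron and dopamine genes. The interval spans 0 for 8 of them, and none of the 11 was called, including Tac1 (0.39), Ddc (0.37) and Cck (-0.88).

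By limma none of 12 genes of dopamine synthesis, storage and breakdown was called. An unadjusted p under 0.05 was found for 2 of them, and for 1912 of all 11741 genes. Th, the rate-limiting enzyme, measured 5.94, 5.73 and 5.51 in saline and 5.59, 5.42 and 4.95 after MPTP, a difference of -0.40 with an interval of -1.0 to 0.19. The treatments overlapped, and the level was near the filter value. Slc6a3 and Slc18a2, the dopamine and vesicular transporters, were under the filter value in all 6 arrays, so their differences of -0.19 and 0.12 say little. The decarboxylase Ddc measured 6.36, 6.44 and 6.19 in saline and 6.73, 6.75 and 6.63 after MPTP (0.37, adjusted p = 0.19). In the midbrain arrays Th differed by -0.82 (adjusted p = 0.13).

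No member was called by limma among 33 complex I subunits, the targets of the MPTP metabolite, although 32 of the 33 had negative differences, with a median of -0.10 against -0.03 over all genes, and 5 had an unadjusted p under 0.05. Over all 11741 genes, 6942 had negative differences and 1912 an unadjusted p under 0.05. After a second quantile normalization 5 of the 33 subunits were called lower. The nearest to the threshold, Ndufc2, measured 11.19, 11.24 and 11.21 in saline and 11.03, 11.05 and 10.93 after MPTP (-0.21, SE 0.06, adjusted p = 0.079). Limma also gave no call among 18 interneuron genes (4 at an unadjusted p under 0.05), 38 potassium channels (7), 11 GABA receptor genes (1), 14 Parkinson disease genes (1), 18 apoptosis genes (4), 34 heat shock and unfolded protein response genes (10, and 3 called higher without MPTP replicate 2), 8 ependymal genes (0) and the 1 erythrocyte gene tested (0). In all, 16 of the 45 lists had no call.

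The striatal calls were set beside those of the midbrain, which come from other arrays but, per the labels, the same treatment, and share the estimate of the spread. Of the 152 striatal rises 49 were also called higher in midbrain, which is 32.2% of the striatal and 19.4% of the 253 midbrain rises, and 2.54% of all genes were called in midbrain. Of the 95 falls 8 were shared (8.4% of the striatal and 17.8% of the 45 midbrain falls). Among the shared rises were Gja1, C1qa, Fcrls, Lyz2, Ifitm1, Ifitm3, Serpina3n, Mgst1, Cat, Nfe2l2, Abca1 and Strip2, and Gadd45g, Cacnb1 and Stmn4 were among the shared falls. Gfap and Vim, with striatal rises of 1.17 and 1.01, had 0.26 and 0.22 in midbrain, but the test of the difference between regions did not call them (adjusted p = 0.15 for both). Frontal cortex, where 8 genes were called (0.0681%), shared 3 rises, Atp8a1, Malat1 and Ppargc1a, and no fall with the striatum. These 3 are named after their values were seen. In striatum, their remaining probe sets brighter than 5.18 ran from -0.13 to 0.37 for Atp8a1 and from -0.18 to 0.56 for Malat1. For Ppargc1a they ran from 0.10 to 0.31. The rises of Atp8a1 and Malat1 were thus not seen at every bright probe set.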

How the data were processed

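Total RNA of striatum was hybridised to Affymetrix arrays as biotin-labelled cRNA made from 10 µg, per the labels' protocols. The deposited values are on the log2 scale and RMA is named in the submitters' processing notes, with a version not given in the sources used here. This method shrinks differences of dim probe sets, and array values carry no read depth, so the number of arrays limits the precision. Of 45101 probe sets, 34958 named 1 gene, 932 several and 9211 none in the platform annotation, and 34754 symbols were updated through Entrez IDs with RefSeq names.

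The probe set of highest mean over 18 arrays represented each gene. A model with 6 group means was fitted to all 18 arrays with limma 3.58.1 (R 4.3.3, lmFit and eBayes with an intensity trend), so the groups share 1 estimate of the spread, with Benjamini-Hochberg adjustment over the 11741 genes and a threshold of 0.05. The script was tested on simulated data. Regional differences were interaction contrasts. Confidence intervals are at 95%. Replicates are biological per the labels, which leave unsaid whether equal numbers come from 1 animal.

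Named genes were the 15 called genes of smallest p in each direction, up to 6 members of each of 45 lists (called first, then by p) and a short set of dopamine, astrocyte and activity genes. Predicted genes were passed over, and any other gene is marked as named after its values were seen. The members and lists were chosen with earlier results of these data known. Alternatives changed the filter, the probe set rule, normalization, the variance model, the arrays fitted, the replicate and animal blocks and each striatal array.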

Additional observations from a re-analysis of the deposited data

Results flagged for a closer look

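The genes singled out here are those whose response to MPTP in striatum differed from that in another region, by the interaction test of limma with adjustment over 11741 genes. Every value is the striatal response minus the response of the other region on the log2 scale. Against frontal cortex the difference was 2.68 for 9630013A20Rik (adjusted p = 1.8e-08), 1.63 for Cnksr3 (6.0e-05) and 1.47 for Rras2 (2.4e-04). It was 1.15 for Cemip2 (adjusted p = 0.011), 0.86 for Fam107b (0.035), 0.74 for Nfasc (0.035) and 0.95 for Marcksl1 (0.049). Against midbrain it was 3.10 for 9630013A20Rik (adjusted p = 8.0e-10), 1.90 for Cnksr3 (3.4e-06) and 1.78 for Rras2 (7.8e-06). It was 1.05 for Adamts4 (adjusted p = 5.8e-04), 0.68 for Sirt2 (8.0e-04), 1.24 for Cemip2 (0.0019), 0.89 for Nfasc (0.0019) and 0.86 for Fam107b (0.029). Both sets of tests use the same striatal arrays. The levels of 9630013A20Rik lay under the filter value in cortex, midbrain and saline striatum, so the sizes of its differences are not exact. This gene passed the filter only because its MPTP striatal arrays were high.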

How the results depend on the processing

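The count of 247 called genes (152 higher, 95 lower) was 745 (359, 386) after a second quantile normalization, 711 (392, 319) with the interquartile range as a covariate, 487 (215, 272) with array weights, 162 (98, 64) without an intensity trend and 134 (78, 56) with the mean over probe sets. Without a filter 63 genes were lower. Leaving out 1 array gave 69 to 291 called, 45 to 215 higher and 24 to 77 lower. Genes differing from cortex, 7 in the main fit, were 4 without a filter, 4 with the mean over probe sets, 13 with the compared regions alone, 21 after quantile normalization and 24 each with array weights and the covariate. With limma and a filter at the 75th percentile there were 0 (641 at an unadjusted p under 0.05), and 5 of the 7 genes were not tested there. Leaving out 1 array gave 3 to 6. Genes differing from midbrain, 8 in the main fit, were 3 at that filter, 22 after quantile normalization, 23 with array weights, 20 with the covariate and 7 to 12 with an array left out. Lasp1, called at -0.31, had 0.0097 as the mean over probe sets. The cause was not tested.

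A replicate block gave 322 called genes (192 higher, 130 lower). Deviations of same-numbered arrays correlated at -0.05, -0.13 and 0.29, so number 3 shared part of its deviation. The labels do not say that equal numbers belong together, and the numbers were not taken as pairs. Whether they share a batch was not tested. Of all 247 called genes, 22 stayed called in all 19 alternatives and 40 in each of the 6 fits lacking an array. A gene not tested in an alternative counts here as not called. This holds for 9630013A20Rik, Rras2, Cnksr3 and Cemip2, which were not tested with the filter at the 75th percentile. For genes under the filter value in a group, the size of a difference is not exact.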
